A study of Homo sapiens and Mus musculus with 33 samples.

Results

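The negative feedback genes of the RAS-MAPK pathway were followed as a set of 10 genes: the dual-specificity phosphatases DUSP4, DUSP5 and DUSP6, the Sprouty genes SPRY2 and SPRY4, the Sprouty-related genes SPRED1 and SPRED2, the ETS factors ETV4 and ETV5, and PHLDA1. They were taken by name, and all 10 were found among the 35805 genes of the HCT116 RNA table and the 25965 genes of the mouse colon RNA table. Every ChIP-seq peak in or within 2 kb of their gene intervals was taken with them, which gave 25 of 40266 peaks in HCT116, 23 of 30338 H3K18cr peaks in colon and 14 of 27035 H3K4me3 peaks in colon. HCT116, a human colon carcinoma line, was treated for 18 h with 5 µM MS275 (entinostat), an inhibitor of class I histone deacetylases, or with the vehicle DMSO alone. It was assayed by RNA-seq with 4 libraries per treatment, and by ChIP-seq of H3K18cr and H3K18ac, the crotonylated and the acetylated form of a lysine in the tail of histone H3, with 3 libraries of each mark for each treatment, beside 1 input from each. Untreated colon epithelium of male C57BL/6 mice, whose age is not given in the sources used here, gave 3 RNA libraries, 2 H3K18cr libraries with 2 inputs, and 3 H3K4me3 libraries with 1 input. HCT116 is a single tumour line and the colon epithelium is a mixture of cell types detached with EDTA. The sources differ on whether mice were pooled for the colon H3K18cr libraries, so what these libraries replicate is not settled.

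Signals from growth factor receptors pass through RAS, RAF and MEK to the kinase ERK, and ERK in turn switches on genes whose products dampen the same pathway. DUSP phosphatases remove the phosphates that activate ERK, Sprouty and Spred proteins act upstream of or on RAS and RAF, and ETV4 and ETV5 are transcription factors that belong to the same ERK-driven output. PHLDA1 is an early response gene that is often counted with this output, and in the intestine it has been used as a marker of stem and tumour cells. Class I histone deacetylases remove acetyl groups, and also crotonyl groups, from histones.

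RNA libraries held 35608533 to 53415604 counts in HCT116 and 8166406 to 10707901 counts in colon, and the ChIP libraries held 2236551 to 5730094 reads in the HCT116 peaks. Epithelial markers were abundant in HCT116, where EPCAM lay between 278 and 448 CPM, the read count scaled to the size of its library, and KRT8 between 1409 and 2471 CPM, but the differentiation markers KRT20 (at most 3.62 CPM) and VIL1 (at most 1.45 CPM) were close to 0. In colon the 6 epithelial markers summed to 5628 to 6628 CPM, against 14.6 to 24.8 CPM for the 3 immune markers and 21.2 to 37.7 CPM for the 4 stromal and vessel markers listed in that table, with Pdgfra at 0 in all libraries. In bulk samples such as these, fewer cells of a type and less RNA per cell cannot be told apart.

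All 10 genes carried a peak over their annotated start in each of the peak lists. RefSeq promoters (GRCh38.p14) were matched for 6 of the 10, namely DUSP6, PHLDA1, SPRED1, SPRED2, SPRY2 and SPRY4; DUSP4, DUSP5, ETV4 and ETV5 are named only. The 250 bases before the start are shown 5′ to 3′ on the strand of the gene for 4 of them. They were picked as starts of different families at which H3K18cr was lower after MS275 (PHLDA1, SPRED1 and SPRY2). Beside them stands the phosphatase most used as a readout of ERK (DUSP6), where the difference did not pass the test. Capitals mark CpG dinucleotides, and each stretch lay wholly inside the HCT116 peak over that start.
PHLDA1, chr12:76031777-76032026, minus strand: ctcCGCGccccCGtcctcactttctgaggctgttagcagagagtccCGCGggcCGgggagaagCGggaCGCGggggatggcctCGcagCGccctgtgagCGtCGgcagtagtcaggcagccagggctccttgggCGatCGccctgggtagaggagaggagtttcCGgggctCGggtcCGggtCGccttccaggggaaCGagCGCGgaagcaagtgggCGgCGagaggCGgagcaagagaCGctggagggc
SPRED1, chr15:38252586-38252835, plus strand: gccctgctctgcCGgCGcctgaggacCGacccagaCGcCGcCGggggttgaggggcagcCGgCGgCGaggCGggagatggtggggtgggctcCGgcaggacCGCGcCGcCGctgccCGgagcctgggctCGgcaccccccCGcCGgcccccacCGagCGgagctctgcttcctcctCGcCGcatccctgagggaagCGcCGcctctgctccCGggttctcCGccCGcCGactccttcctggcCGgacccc
SPRY2, chr13:80341127-80341376, minus strand: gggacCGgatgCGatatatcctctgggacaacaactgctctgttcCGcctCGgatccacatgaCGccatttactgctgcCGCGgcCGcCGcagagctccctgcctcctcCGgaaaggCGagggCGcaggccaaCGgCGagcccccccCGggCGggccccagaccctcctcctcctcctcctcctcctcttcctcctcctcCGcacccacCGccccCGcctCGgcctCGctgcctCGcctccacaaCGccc
DUSP6, chr12:89352502-89352751, minus strand: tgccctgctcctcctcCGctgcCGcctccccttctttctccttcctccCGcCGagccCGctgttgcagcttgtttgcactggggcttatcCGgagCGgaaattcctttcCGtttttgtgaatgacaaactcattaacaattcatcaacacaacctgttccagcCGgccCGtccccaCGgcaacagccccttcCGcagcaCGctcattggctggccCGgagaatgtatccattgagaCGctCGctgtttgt
These stretches hold 26, 30, 23 and 16 CpG dinucleotides in this order. Over windows of 300 bases that also take in the first 50 bases after the start, the 5 promoters matched at the annotated start held 19 to 32 CpG (median 30), where the median of all 35116 RefSeq promoters was 14 and 42.9% held at least 19. The windows were searched on both strands for TGAATGAA and TGAATGGA, the sites of the ERK-regulated repressor Capicua, for the ETS motif CCGGAAGT and for the AP-1 motif TGANTCA, which 1.65%, 1.03%, 4.14% and 7.71% of all promoters hold. At the annotated starts 0 matches were found, and the only ones, both TGANTCA, lay in the window of an internal SPRED2 start 65821 bp into the gene.

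The first question was whether MS275 altered the RNA of these genes in HCT116. Levels are CPM after TMM normalization, and a gene was called at a Benjamini-Hochberg adjusted p under 0.05 in the quasi-likelihood test of edgeR. The libraries of both treatments are numbered 1 to 4, and same-numbered libraries deviated together, so a blocked fit, with that number as the block, is given beside the unblocked one. Without the block, 1 of 14961 genes tested was called (0.00668%), and 0 of the 10 feedback genes were, with 0 at an unadjusted p under 0.05 and 0 called by DESeq2. With the block, 1171 genes (7.83%) were called higher and 980 (6.55%) lower, among them 1 feedback gene in each direction, DUSP5 and PHLDA1. The median log2 fold change of the 10 genes was 0.04 with the block, beside 0.01 over all genes tested.

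DUSP5, a nuclear phosphatase that acts on ERK, stood at 133, 145, 112 and 134 CPM in DMSO libraries 1 to 4, and at 189, 177, 137 and 162 CPM in MS275 libraries 1 to 4. MS275 was higher in 4 of 4 numbers, although MS275 library 3 lay within the range of the DMSO libraries. With the block the rise was 0.34 on the log2 scale (SE 0.07, adjusted p = 0.00776), and it passed the test whichever number was left out (adjusted p between 0.00785 and 0.0476). Without the block the same difference (0.34, SE 0.16) had an adjusted p of 0.763, since the spread between numbers then counts as error.

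PHLDA1 stood at 590, 687, 501 and 695 CPM in DMSO and at 468, 623, 397 and 615 CPM in MS275. Each MS275 library was lower than the DMSO library of its number, while the groups as a whole overlapped. The log2 fold change was -0.25 with the block (SE 0.06, adjusted p = 0.0143) and -0.23 without it (SE 0.19, adjusted p = 0.913). Leaving out number 1 or number 4 ended the call with the block (adjusted p = 0.0635 and 0.0539), and leaving out number 2 or 3 did not.

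DUSP6, the cytoplasmic ERK phosphatase, gave 115, 183, 103 and 245 CPM in DMSO and 141, 214, 95.7 and 270 CPM in MS275. The libraries fell apart by number rather than by treatment: those numbered 3 were lowest and those numbered 4 highest in both treatments. Its log2 fold change of 0.14 with the block (SE 0.08, adjusted p = 0.249) did not pass the test, except without number 3 (0.21, adjusted p = 0.0441). DUSP4, a nuclear phosphatase, varied least between the numbers, at 217 to 281 CPM in DMSO and 233 to 295 CPM in MS275 (0.06, SE 0.06, adjusted p = 0.588 with the block).

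Of the Sprouty and Spred genes, which restrain signalling at RAS and RAF, SPRY2 gave 7.48, 11.02, 5.41 and 10.5 CPM in DMSO and 7.58, 15.6, 5.36 and 11.9 CPM in MS275. Its groups overlapped, and the ratio of MS275 to DMSO was largest in number 2 (0.50 on the log2 scale; 0.17 over all, SE 0.18, adjusted p = 0.586 with the block). SPRY4 (68.8 to 102 CPM in DMSO, 55.4 to 96.4 in MS275), SPRED1 (38.0 to 80.4 and 34.9 to 82.4) and SPRED2 (51.5 to 86.4 and 38.8 to 108) overlapped as widely, and none of the 3 was called in either fit. The log2 ratio of MS275 to DMSO for SPRED2 was -0.41 in number 3 and 0.32 in number 4, so its mean of 0.03 with the block (SE 0.11) stood between opposite pairs. ETV4 (57.1 to 89.0 CPM in DMSO, 54.2 to 89.9 in MS275) and ETV5 (105 to 144 and 90.6 to 136) gave log2 differences of -0.0046 (adjusted p = 0.982) and -0.09 (adjusted p = 0.448) with the block. The counts of 4 of the genes are uncertain to the extent that other genes share their exons, since the use of strand in counting is not stated. In GENCODE 44 an antisense RNA (ENSG00000274021) shares 1105 bases with DUSP6, PHLDA1-AS1 shares 553 bases with PHLDA1 and DHX8 shares 68 bases with ETV4, all on the opposite strand. DGKG shares 164 bases with ETV5 on the same strand. The table's interval of ETV4 (chr17:43527844-43579620, GRCh38) lies within the gene DHX8.

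**Figure D1:**
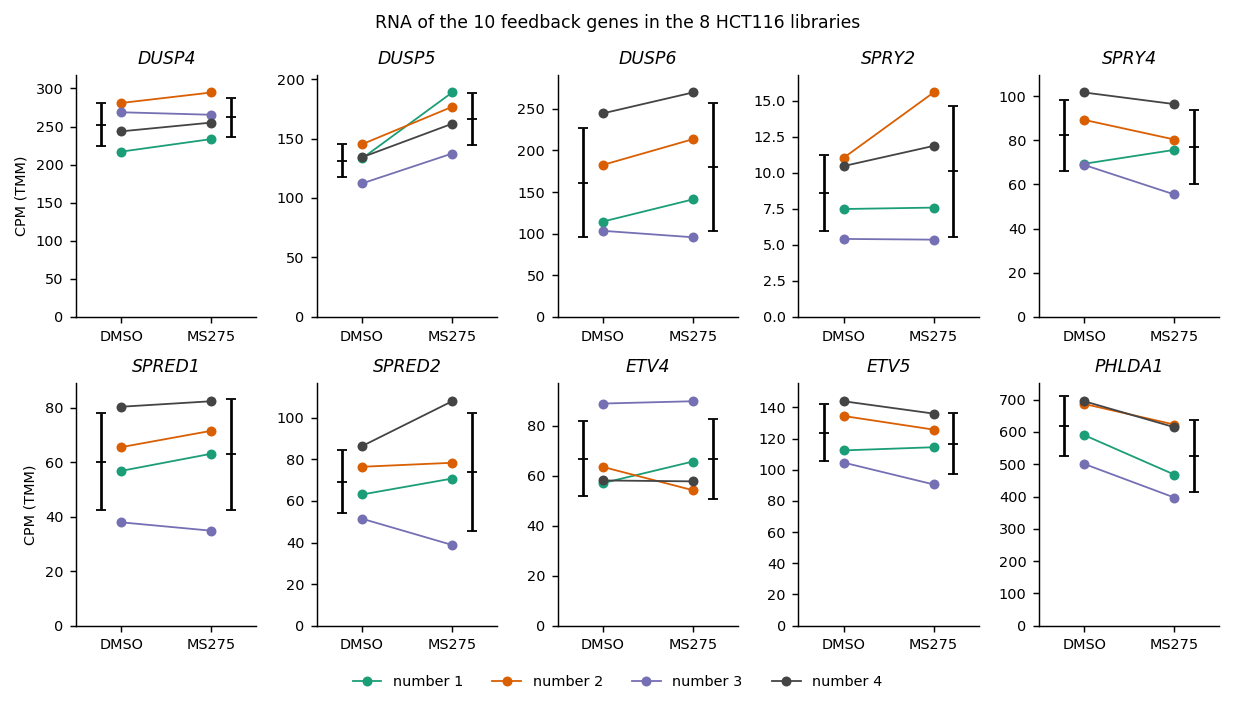
RNA level (CPM after TMM, linear axis from 0) of each feedback gene in the 4 DMSO and 4 MS275 libraries of HCT116, with lines joining libraries of the same number and bars giving the mean ± SD of each treatment. All lines rise for DUSP5 and all fall for PHLDA1, and number 3 (violet) is the lowest line in both treatments for 8 of the 10 genes.

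**Figure D2:**
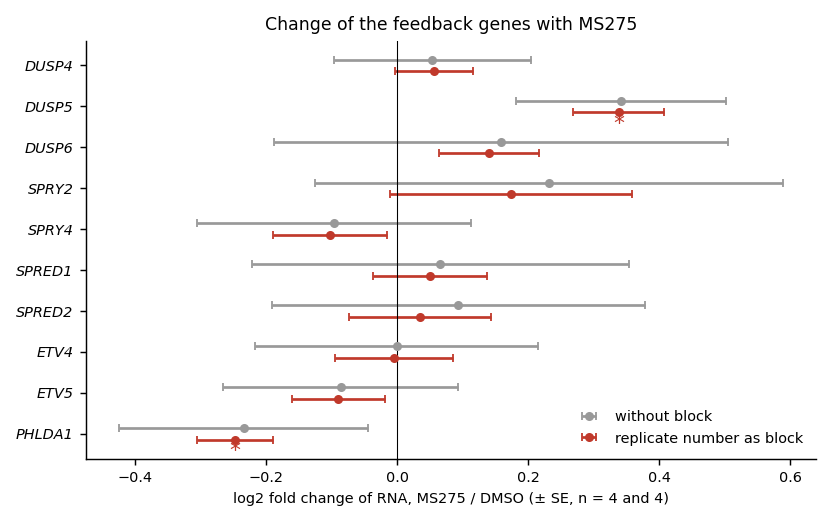
log2 fold change of RNA, MS275 against DMSO, with its SE, for the fit without a block (grey) and for the one blocked on replicate number (red), where a star marks an adjusted p under 0.05. The points of both fits nearly coincide (DUSP5 at 0.34 in each), while the error bars are shorter with the block and the stars stand at DUSP5 and PHLDA1 alone.

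For all 10 genes the range between numbers was wider than the difference between treatments in the blocked fit. On the mean of both treatments, the range between the highest and the lowest number was 1.37 on the log2 scale for DUSP6, 1.28 for SPRY2, 1.16 for SPRED1 and 1.11 for SPRED2, and 0.35 for DUSP4. For 8 of the 10 genes the lowest library was number 3 in both treatments, and 5 were highest in number 4; over all genes tested, 38.5% were lowest in number 3 on the same mean and 28.6% highest in number 4. ETV4 went the other way and was highest in number 3.

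Several of the genes varied together over the 8 libraries. With DUSP6 as the reference, Pearson r of log2 CPM was 0.93 for SPRED2, 0.93 for SPRY4, 0.92 for SPRED1, 0.92 for ETV5 and 0.89 for SPRY2, lower for PHLDA1 (0.77), DUSP5 (0.46) and DUSP4 (0.20), and negative for ETV4 (-0.75). Of the 45 pairs among the 10 genes, 23 had an r above 0.5 (median 0.56), with SPRY4 and ETV5 at 0.99 and SPRED1 and ETV4 at -0.92. These values describe 8 libraries, which share 4 numbers. The share of all gene pairs with an r above 0.5 was not computed. Of the genes ranked by r with DUSP6, 12.3% reached at least the r of PHLDA1 and 32.2% at least that of DUSP5. The genes most like DUSP6 were outside the set: SPRED2, the first of it, was number 258 of 14960 genes ranked by r. The 5 highest were INPP4B (0.994), PPM1A (0.993), SMIM14 (0.992), CDK19 (0.991) and USP46 (0.989).

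Relatives of the 10 genes, the RAS-ERK cascade itself and other ERK-driven genes were compared in the same fits. Without the block 0 genes of these 3 lists were called by edgeR, with 1 at an unadjusted p under 0.05 (SPRY1). With the block, 2 of 13 relatives rose, DUSP16 (0.52, adjusted p = 0.0341), a phosphatase that acts mainly on JNK and p38, and the ETS factor ETV1 (0.51, adjusted p = 0.0248), and 2 fell, the phosphatase DUSP2 (-0.56, adjusted p = 0.0230) and PHLDA2 (-0.38, adjusted p = 0.00440), a relative of PHLDA1. SPRY1, named after its values were seen as the largest difference among the better covered relatives, was at 1.33 to 3.82 CPM in DMSO and 3.34 to 8.06 CPM in MS275 (0.99, adjusted p = 0.0597). Among the cascade genes HRAS fell (-0.37, adjusted p = 0.0240), while BRAF (0.14, adjusted p = 0.484) and the kinases MAP2K1, MAP2K2 and MAPK3 were not called. Of 8 other ERK-driven genes, EGR1 (0.44, adjusted p = 0.00530) and IER3 (0.27, adjusted p = 0.0214) rose, both immediate early genes, FOSL1, which encodes an AP-1 subunit, fell (-0.41, adjusted p = 0.049994, lower in 3 of 4 numbers), and MYC and CCND1 were not called. Of these calls, PHLDA2 and EGR1 held whichever number was left out. Those of DUSP16 (adjusted p = 0.0559 to 0.1498) and DUSP2 (0.0548 to 0.0728) ended whichever was left out. ETV1 (0.0453 to 0.110) and IER3 (0.0350 to 0.0696) stayed called only without number 2, HRAS (0.00457 to 0.118) only without number 3, and FOSL1 (0.0172 to 0.232) without number 1 or 3. The median difference with the block was -0.12 for the relatives and 0.15 for the other ERK-driven genes.

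CDKN1A, a cell cycle inhibitor that rises in many cells given deacetylase inhibitors, served as a check of the treatment. Its level was 156 to 227 CPM in DMSO and 205 to 295 CPM in MS275, a difference of 0.28 (adjusted p = 0.0167 with the block, 0.870 without), which was not called with the block when number 1 or 2 was left out (0.0785 and 0.0763). Cell type markers were read from the same libraries: the 6 epithelial markers summed to 2679 to 3881 CPM in DMSO and 3367 to 4324 CPM in MS275, and the 6 stromal and vessel markers to 10.98 to 13.93 CPM and 21.8 to 25.8 CPM, which do not overlap. With the block KRT8, KRT18 and CDH1 rose (0.32, 0.29 and 0.74, adjusted p = 0.00281, 0.00631 and 0.000466), and EPCAM fell (-0.22, adjusted p = 0.0498). COL1A1 rose (0.92, adjusted p = 0.00874), while COL1A2, PECAM1 and PDGFRA stayed under 0.65 CPM in every library. EPCAM stayed called only without number 2 (0.0348, otherwise up to 0.237), and COL1A1 was not called without number 1 (0.0647). The 5 immune markers in the table summed to 5.76 to 8.38 CPM in DMSO and 4.14 to 11.3 CPM in MS275, nearly all of it CD68, with MS4A1 at 0 throughout. The part of these markers in the changes of DUSP5 and PHLDA1 was not tested.

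Per length, the 10 genes covered a wide range of levels in DMSO. Percentiles of level, here and in colon, are among protein-coding genes with a known exon length. In CPM per kb of exon (mean ± SD of the 4 DMSO libraries) PHLDA1 was highest at 105 ± 15.5, which is above 98.1% of the 17963 genes compared, followed by DUSP5 (51.8 ± 5.43), DUSP6 (41.8 ± 17.0), DUSP4 (34.7 ± 3.89), ETV5 (21.5 ± 3.19), ETV4 (19.0 ± 4.25), SPRED2 (12.6 ± 2.77), SPRY4 (12.5 ± 2.45), SPRED1 (7.77 ± 2.29) and SPRY2 (2.67 ± 0.82). The means of all 3 phosphatases stood above those of every Sprouty and Spred gene. The libraries of neighbours overlapped for DUSP5 and DUSP6, for DUSP6 and DUSP4, for ETV5 and ETV4, and for SPRED2 and SPRY4, and did not overlap for the other neighbours in this order.

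The order was another one in normal mouse colon epithelium. There Etv5 (48.1 ± 8.24 CPM per kb, n = 3) and Phlda1 (43.97 ± 6.43) came first and overlapped, followed by Spry2 (25.6 ± 2.08), Dusp6 (18.8 ± 1.66), Spred2 (16.2 ± 0.60), Etv4 (11.3 ± 0.39), Spred1 (8.84 ± 0.59), Dusp4 (4.34 ± 0.96), Dusp5 (3.74 ± 0.76) and Spry4 (1.23 ± 0.49). Dusp4 and Dusp5 overlapped, and the other neighbours did not. SPRY2 was last of the 10 in HCT116 and above 57.1% of the protein-coding genes compared there. In colon Spry2 was the third and above 89.5% of 19131 protein-coding genes. DUSP5, above 95.9% of the genes compared in HCT116, was above 60.6% in colon. Without division by length Spry2 was above 77.9% of genes in colon and SPRY2 above 49.5% in HCT116, and DUSP5 above 53.9% and 92.2%. Species, cell state and processing differ between the tables and cannot be told apart, so no test was made between them.

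**Figure D3:**
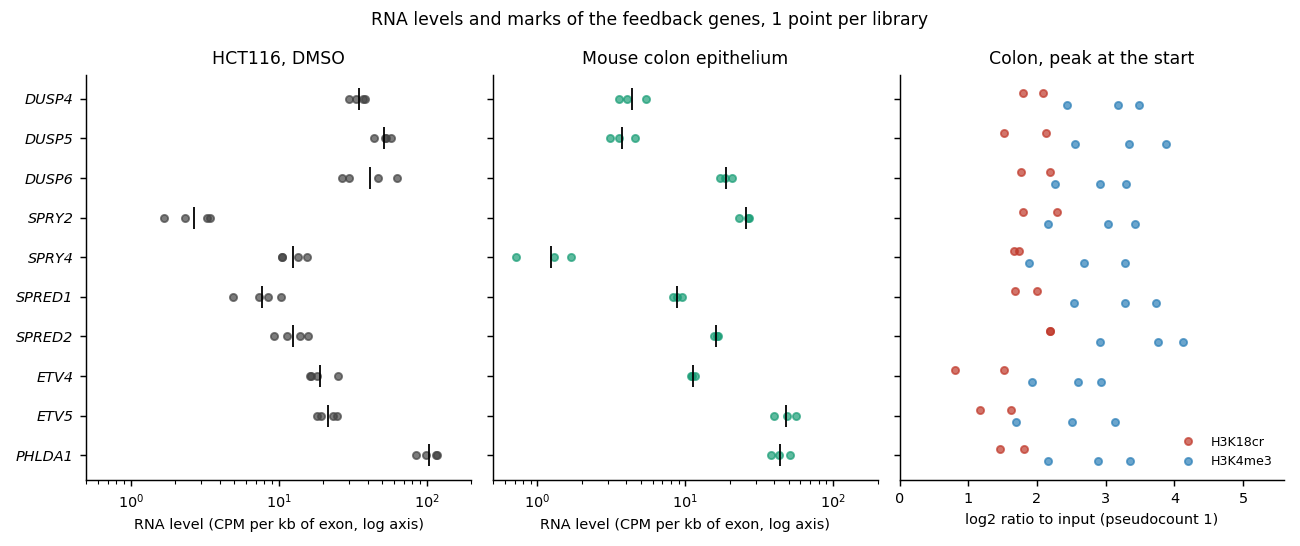
Left and middle, RNA level in CPM per kb of exon on a log axis, with 1 point per library and a bar at the mean, in the 4 DMSO libraries of HCT116 and the 3 libraries of mouse colon epithelium. Right, log2 ratio to input of H3K18cr (2 libraries, red) and H3K4me3 (3 libraries, blue) at the peak over the start of the same genes in colon; SPRY4, the lowest RNA in colon, carries H3K18cr at 1.66 and 1.73, and ETV5, the highest, at 1.18 and 1.62.

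In HCT116 all 10 starts were covered by a peak, and 15 further peaks lay in or near the genes, 10 of them at SPRED2, 3 at ETV5 and 1 each at ETV4 and PHLDA1. The start peaks of the phosphatases and of SPRY4 were very broad: 28050 bp at DUSP5, 17100 bp at SPRY4, 16650 bp at DUSP4 and 14250 bp at DUSP6, where the median peak over a protein-coding start was 2.7 kb wide. DUSP5 was thereby wider than 99.7% of the 11957 peaks over starts, and the narrowest of the set, ETV5, than 36.5%. The start peaks of ETV5 and PHLDA1 each adjoin another peak without a gap (1950 and 10650 bp wide). Their widths therefore depend on where the peak finder divided them. In H3K18cr reads per kb in DMSO, SPRED2 was highest (102, above 96.7% of start peaks) and SPRY2 (56.3) and SPRY4 (56.6) stood at the middle of all start peaks (49.7% and 50.2%). Over the 10 genes the level of RNA per kb and H3K18cr per kb were weakly related (Pearson r = 0.20, a description over 10 genes of the same libraries).

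The second question was how MS275 changed the 2 marks at these peaks. Values are scaled reads per peak, the deposited log2 values put back on the linear scale, and peaks were tested with limma on the log2 values of each mark, with Benjamini-Hochberg adjustment over all peaks tested. Such values give the share of a library's reads at a peak. Lower and fell therefore mean a lower share, not a lower amount of the mark. In the study, MS275 raised histone crotonylation in whole extracts, and H3K18cr at selected promoters by ChIP-qPCR. It describes the decrease over starts as relative, which a gain of the marks elsewhere in the genome could explain. For H3K18cr, 5344 of 40026 peaks (13.4%) were called lower and 137 higher, and of the 25 peaks of the feedback genes 7 were called lower and 0 higher, with 4 higher at an unadjusted p under 0.05. For H3K18ac, 4293 of 40122 (10.7%) were called lower and 154 higher, and of the 25 peaks 2 were called lower and 0 higher, with 0 higher at an unadjusted p. Of the 10 start peaks, 6 were called lower for H3K18cr and 2 for H3K18ac, which is to be read beside 36.7% and 30.7% called among all peaks over protein-coding starts. All 10 start peaks had a negative fold change for both marks, as did 94.0% (H3K18cr) and 92.7% (H3K18ac) of all peaks over protein-coding starts. The median of the 10 was -0.74 for H3K18cr and -0.66 for H3K18ac, beside -0.56 and -0.62 for all peaks over starts and -0.20 and -0.19 for all peaks.

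PHLDA1 showed the largest relative decrease of both marks among the start peaks. Its start peak (chr12:76027801-76033650, GRCh38) held 419, 403 and 347 H3K18cr reads in DMSO and 178, 187 and 253 in MS275, and 338, 419 and 675 H3K18ac reads in DMSO and 219, 231 and 174 in MS275. The MS275 libraries all lay under the DMSO libraries in either mark. Scaled H3K18cr reads fell by 0.93 on the log2 scale (SE 0.20, adjusted p = 0.0216), to 0.524 times the DMSO value. Those of H3K18ac fell by 1.15 (SE 0.27, adjusted p = 0.0129), to 0.452 times. Relative to the input of the same treatment H3K18cr went from 8.78 to 3.55 times and H3K18ac from 10.8 to 3.59 times. The next peak, which runs on through the gene and past its end (3976 to 14625 bp from the start), was also lower for H3K18cr (-0.94, SE 0.19, adjusted p = 0.0207). Its H3K18ac value was -0.81 (adjusted p = 0.0505).

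Of the phosphatases, DUSP4 was lower for H3K18cr at its start, with 1660, 1546 and 1321 scaled reads in DMSO and 854, 773 and 1017 in MS275 (-0.78, SE 0.19, adjusted p = 0.0269). Its H3K18ac showed the same difference with a wider error (-0.78, SE 0.26, adjusted p = 0.0507), and the groups did not overlap for either mark. DUSP6 held 1210, 1092 and 984 H3K18cr reads in DMSO and 638, 654 and 906 in MS275; the groups were apart, but the difference of -0.59 (SE 0.20, adjusted p = 0.0742) did not pass the test. DUSP5 held 1992, 2105 and 1624 reads in DMSO and 1394, 1392 and 1532 in MS275, the smallest difference of the 10 (-0.40, SE 0.18, adjusted p = 0.172), in a peak that is the broadest of the set and only 2.59 times its input. DUSP5, the one gene of the set whose RNA rose with the block, thus showed no called change in either mark (H3K18ac -0.41, SE 0.26, adjusted p = 0.359).

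Of the 4 Sprouty and Spred starts, 3 were called lower for H3K18cr. SPRED1 held 416, 355 and 260 H3K18cr reads in DMSO and 205, 190 and 185 in MS275, and fell by 0.80 (SE 0.21, adjusted p = 0.0322). SPRED2 fell by 0.78 (399, 364 and 381 against 216, 190 and 265 reads, SE 0.19, adjusted p = 0.0260), and SPRY2 fell by 0.73 (274, 272 and 215 against 136, 147 and 177 reads, SE 0.19, adjusted p = 0.0347). SPRY4, in a peak of low enrichment over input (3.07 times), gave -0.43 (SE 0.20, adjusted p = 0.180). In H3K18ac SPRED2 alone of these 4 was called (-0.86, SE 0.26, adjusted p = 0.0369), from 310, 365 and 547 reads in DMSO to 245, 206 and 205 in MS275. This call ended with the replicate number as a block (adjusted p = 0.0695), and 2 of the 6 fits that left out a library kept it (adjusted p = 0.0137 to 0.183).

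At the ETS factors, the start peak of ETV5 held 228, 202 and 158 H3K18cr reads in DMSO and 106, 122 and 116 in MS275, and fell by 0.76 (SE 0.19, adjusted p = 0.0317), with H3K18ac at -0.73 (adjusted p = 0.0736). ETV4 gave -0.53 for H3K18cr (adjusted p = 0.0920) and -0.70 for H3K18ac (adjusted p = 0.105) at its start. All MS275 libraries lay below all DMSO libraries at 10 of the 10 start peaks for H3K18cr, as they did at 64.7% of all peaks over protein-coding starts and 29.9% of all peaks tested. For H3K18ac this held at 6 of the 10, beside 52.4% and 23.1%. Across the 10 genes the RNA difference and the H3K18cr difference at the start had a Pearson r of 0.43, which is a description over 10 genes.

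**Figure D4:**
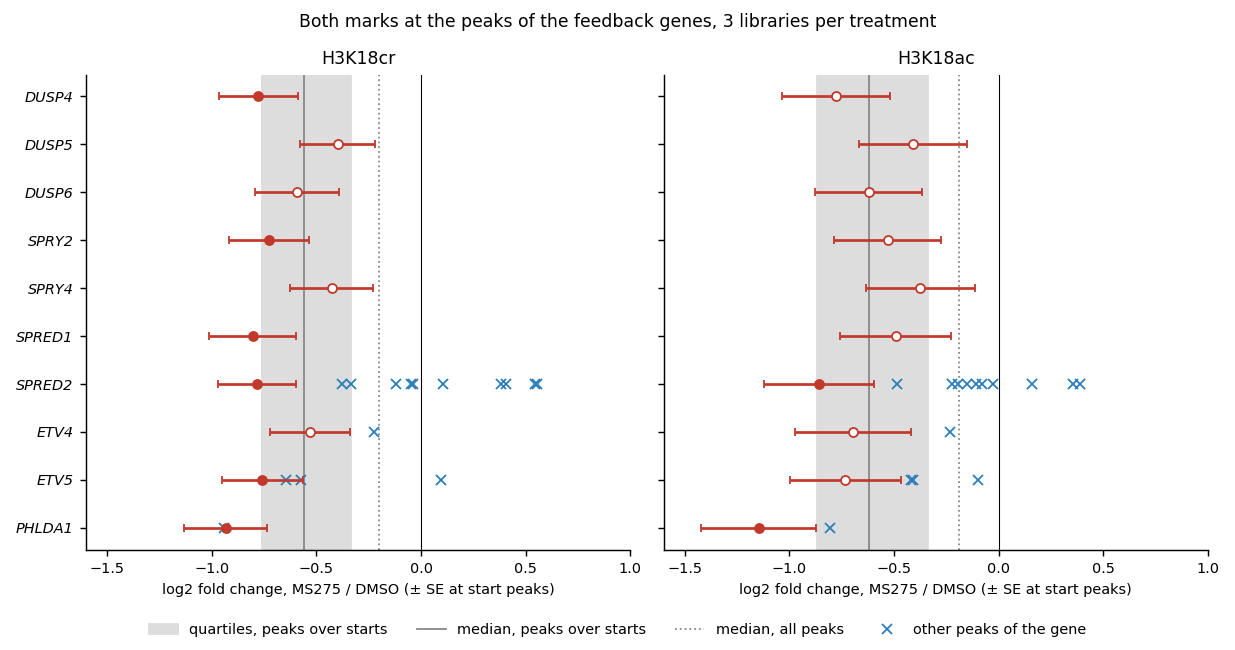
log2 fold change of H3K18cr (left) and H3K18ac (right), MS275 against DMSO, at the start peak of each gene (circles ± SE, filled where the adjusted p is under 0.05) and at its other peaks (crosses, no error drawn). The grey band gives the quartiles and the grey line the median of all peaks over protein-coding starts (-0.56 and -0.62), and the dotted line the median of all peaks. All 10 circles lie left of 0 for both marks, and PHLDA1 lies farthest left. Of all peaks over protein-coding starts, 94.0% (H3K18cr) and 92.7% (H3K18ac) were negative.

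At the 15 peaks that do not cover an annotated start, some of which adjoin a start peak (at ETV5 and PHLDA1), the differences went both ways. Their median was -0.05 for H3K18cr and -0.15 for H3K18ac, and apart from H3K18cr at the second PHLDA1 peak none was called for either mark. The ETV5 peak that ends 112 bp before the start gave -0.65 for H3K18cr (adjusted p = 0.0852). Inside ETV5, the peaks from 2739 and 8889 bp gave -0.58 and 0.10 (adjusted p = 0.0588 and 0.801). Of the 15, 10 belonged to SPRED2, whose product restrains RAF activation, 9 in the gene and 1 upstream of it. Over its 11 peaks, which reach from -6401 to 113298 bp from the start, the start peak fell and the 10 others gave H3K18cr differences of -0.38 to 0.55. At the peak from 72649 to 74148 bp the H3K18cr reads were 34.0, 47.8 and 38.7 in DMSO and 52.9, 49.6 and 74.4 in MS275 (0.54, SE 0.22, adjusted p = 0.123), so the groups stood apart in the direction opposite to the start. They also stood apart, higher in MS275, at the peaks from 58699 and from 78049 bp (0.38 and 0.40, adjusted p = 0.170 and 0.144), and, lower in MS275 as at the start, at the peak from 111499 bp (-0.38, adjusted p = 0.218). Of all peaks tested that lie at least 1 kb from every protein-coding start, 4.39% had all MS275 libraries above the DMSO libraries and 14.9% had all below; the 4 peaks share 1 gene. The H3K18ac reads of the peak from 72649 bp overlapped (-0.15, SE 0.26, adjusted p = 0.802).

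**Figure D5:**
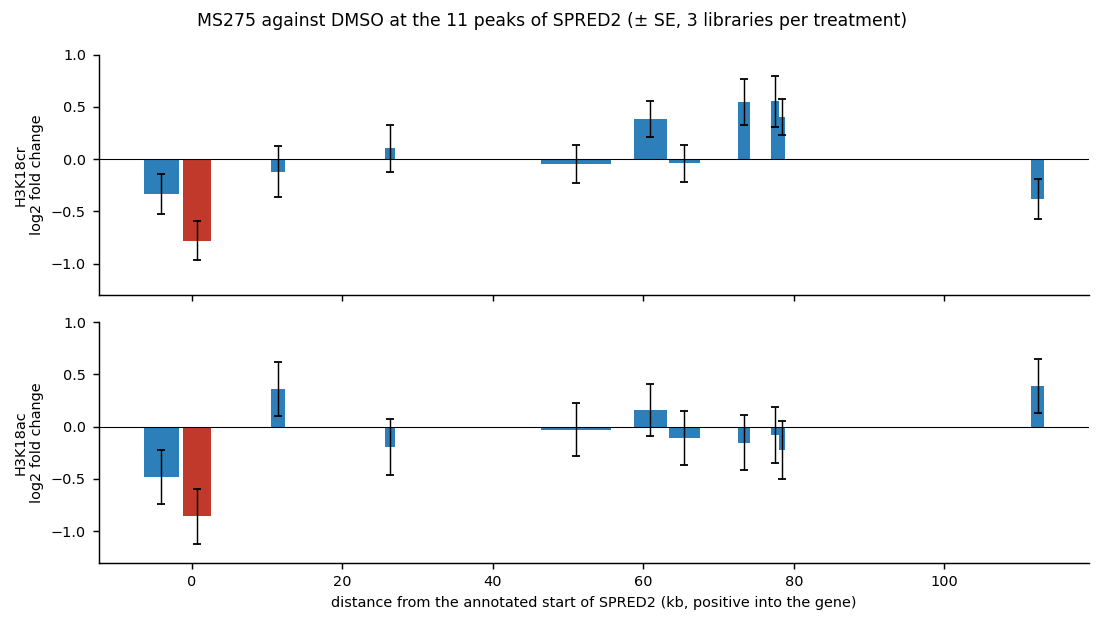
log2 fold change of H3K18cr (top) and H3K18ac (bottom) at the 11 peaks of SPRED2 against the distance from its start in kb, where each bar spans the width of a peak, error bars are SE, and the start peak is red. The start peak is at -0.78 and -0.86, and for H3K18cr 4 of the bars between 58699 and 78798 bp from the start lie above 0.

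The difference between the marks was tested directly as an interaction term in limma over the 12 ChIP libraries. It was called at 0 of 40266 peaks (0%), with 1040 peaks at an unadjusted p under 0.05, and at 0 of the 25 peaks of the feedback genes. Of these, only the SPRED2 peak from 111499 to 113298 bp into the gene had an unadjusted p under 0.05 (H3K18cr minus H3K18ac effect -0.77, SE 0.31, adjusted p = 0.999914). At the start peaks the effect of MS275 differed between the marks by -0.31 (SPRED1, SE 0.33) to 0.21 (PHLDA1, SE 0.35), each smaller than its SE.

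The calls depend on the scaling and on single libraries. The scaling by the authors puts the median of all peaks at -0.20 (H3K18cr) and -0.19 (H3K18ac), and TMM scaling moves it to 0.04 and 0.06; with TMM, edgeR called 4605 peaks lower and 906 higher for H3K18cr, and 6678 and 1846 for H3K18ac. Under TMM the 10 start peaks stayed negative for both marks (-0.68 to -0.16 for H3K18cr, median -0.51, beside -0.32 for all peaks over starts). Of all peaks over starts, 83.3% were negative for H3K18cr and 80.8% for H3K18ac. By edgeR, 7 peaks of the feedback genes were called lower and 2 higher for each mark. Those higher were all at SPRED2, from 58699 and 72649 bp for H3K18cr and from 10549 and 111499 bp for H3K18ac. With each library centred on its median instead, the 10 start peaks were also negative (-0.74 to -0.20 for H3K18cr), as were 85.4% (H3K18cr) and 85.6% (H3K18ac) of all peaks over starts. However, limma then called 0 H3K18cr peaks, of the feedback genes or any other. Among the 25, 9 were lower and 4 higher for H3K18cr at an unadjusted p under 0.05. For H3K18ac, 4 of the 25 were called lower. The count of 7 for H3K18cr became 0 without DMSO library 1 or 2 or MS275 library 1 or 2, with 9, 9, 9 and 8 of these peaks lower at an unadjusted p under 0.05. It was 6 without MS275 library 3 and 10 without DMSO library 3. The count of 2 for H3K18ac became 0 without DMSO or MS275 library 3 (5 and 6 lower at an unadjusted p), 1 without DMSO or MS275 library 2, and 6 without DMSO or MS275 library 1.

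In mouse colon epithelium the question was whether the same genes carry H3K18cr together with H3K4me3, the mark of active promoters. Each of the 10 had an H3K18cr peak and an H3K4me3 peak over its start. Ratios to input at the H3K18cr start peaks (log2, with 1 read added) were 2.19 and 2.19 for Spred2, 1.80 and 2.29 for Spry2, 1.77 and 2.19 for Dusp6, and 1.80 and 2.09 for Dusp4 in the 2 libraries. These were the highest of the set, and Spred2 stood above 95.7% of all 10255 H3K18cr peaks over starts. The lowest were Etv4 (0.81 and 1.53) and Etv5 (1.18 and 1.62), whose means of 1.17 and 1.40 were below the median of 1.53 for peaks over starts.

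For H3K4me3 Spred2 was again highest, with 2.92, 3.76 and 4.12 (log2 ratio to the 1 input) and above 97.8% of the H3K4me3 peaks over starts, followed by Dusp5 (2.55, 3.34 and 3.87) and Spred1 (2.54, 3.29 and 3.73), and Etv5 (1.69, 2.50 and 3.13) had the lowest mean, next to Etv4 (1.93, 2.59 and 2.94), which was lower in library 3. Etv5, whose RNA overlapped with Phlda1 at the top of the order in colon, was thus among the lowest in both marks, and Spry4, the least abundant at 0.72 to 1.69 CPM per kb, had ratios above the medians of both marks (means 1.70 and 2.61, medians 1.53 and 2.44). The libraries of a mark also differed as a whole, with medians over start peaks of 1.38 and 1.71 for H3K18cr and of 1.82, 2.56 and 2.95 for H3K4me3.

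Spred2 held the most peaks in colon as in HCT116: 11 of the 23 colon H3K18cr peaks were at this gene, as 11 of the 25 HCT116 peaks were at SPRED2, 1 of them upstream of it. Of the 23, 11 overlapped an H3K4me3 peak by at least 1 bp, which are the 10 start peaks and the second Spry2 peak, where 41.2% of all H3K18cr peaks do. The 10 Spred2 peaks away from the start, 4709 to 69658 bp into the gene, overlapped no H3K4me3 peak, and their H3K18cr ratios had means of 1.07 to 1.77. Etv4 had 2 further H3K4me3 peaks inside the gene (mean ratios 1.52 and 0.92) without an H3K18cr peak there.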

How the data were processed

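The 33 libraries came from 5 tables and were assigned by the labels. For RNA the deposited values are raw counts per gene. For the colon ChIP-seq peaks the deposited values are a linear signal, reads multiplied by the authors up to the largest library, and for HCT116 they are the deposited log2 of reads scaled in the same manner. The submitters' processing notes name Trim Galore 0.4.2, TopHat2 2.0.12 and Bowtie2 2.2.5; builds were GRCm38 and GRCh38. Duplicates were removed from ChIP-seq reads, and peaks were called with the MACS peak finder of SEQMONK as 1 list for all libraries of a table, so that no library has peaks of its own. HCT116 libraries were scaled by factors of 1 to 1.65, and 100% of values gave whole reads within 0.1 read; edgeR on these reads, with TMM, was an alternative and called 5511 peaks for H3K18cr and 8524 for H3K18ac.

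RNA was tested with edgeR 4.0.16 (TMM, filterByExpr) and peaks with limma 3.58.1 in R 4.3.3, on peaks with at least 10 scaled reads in at least 3 libraries, with Benjamini-Hochberg adjustment over all features tested and a threshold of 0.05. DESeq2 1.42.0 was an alternative. Exon lengths and starts came from GENCODE 44 and its mouse counterpart, and log2 ratios to input had a pseudocount of 1. Levels not divided by exon length were an alternative. Neither labels nor methods say what a replicate number shares. Deviations of same-numbered RNA libraries from their group means correlated at 0.226, 0.151, 0.433 and 0.460 for numbers 1 to 4, all above 0.1, so they were treated as pairs. This rests on the data alone, and DMSO library 2 correlated more with MS275 library 4 (0.239) than with MS275 library 2. Nothing says whether libraries come from separate cultures, beyond the methods calling the RNA replicates biological; p-values measure the spread between these libraries.

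The 10 genes, the lists and the rules for naming were chosen with earlier results of these data known. Named were all 10 genes, genes of the 3 lists with an adjusted p under 0.05 in either fit (some results of the cascade list are not reported here), CDKN1A, for each gene the peak at its start and its called peaks, and the 5 genes most correlated with DUSP6. The study's methods describe 2 H3K18cr replicates in HCT116, and the table holds 3, all of which were used.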

Additional observations from a re-analysis of the deposited data

How the results depend on the processing

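In RNA, genes called higher (1) and lower (0 by edgeR, with 987 genes in both directions at an unadjusted p under 0.05) became 1171 and 980 with the replicate block, 11 and 2 without the filter on low counts, 125 and 36 with DESeq2, 1344 and 1266 with DESeq2 and the block, and 0 to 1257 and 0 to 1327 when a library or number was left out. Of the 10 genes, 1 was called higher and 1 lower with the block in either tool, and 0 to 2 higher and 0 to 1 lower with a library or number left out. Fold changes reversed only when a library or number was left out, within -0.027 to 0.11 for DUSP4, -0.10 to 0.43 for DUSP6, -0.074 to 0.44 for SPRY2, -0.22 to 0.032 for SPRY4, -0.10 to 0.27 for SPRED1, -0.15 to 0.31 for SPRED2, -0.17 to 0.17 for ETV4 and -0.17 to 0.018 for ETV5; DUSP5 and PHLDA1 kept their sign.

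For H3K18cr, centring each library on its median left 0 peaks called by limma in either direction, with 6933 lower and 3350 higher at an unadjusted p under 0.05, and 0 peaks of the feedback genes (9 at an unadjusted p). Peaks called higher were 906 with TMM and 81 among peaks at least 2 times the input, and 2 peaks of the feedback genes were higher with TMM. Leaving out a library gave 0 to 8052 lower, 0 to 213 higher, and 0 to 10 lower peaks of the feedback genes. For H3K18ac, lower peaks were 6678 with TMM, 2827 with the block and 496 to 6834 with a library left out; higher peaks were 1846 with TMM, 516 with centring, 77 at 2 times the input and 71 to 280 with a library left out. Lower H3K18ac peaks of the feedback genes were 7 with TMM, 4 with centring, 1 with the block, 5 at 2 times the input and 0 to 6 with a library left out, and 2 were higher with TMM. The causes were not tested.

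Same-numbered ChIP libraries did not all deviate together (r 0.108, 0.0729 and 0.229 for H3K18cr; -0.207, 0.0464 and -0.134 for H3K18ac), so they were not treated as pairs, although the study names a paired test for these libraries; the count of H3K18cr calls was also 7 with the block. Taking peaks inside the gene or within 10 kb left the counts of 7 and 2, and the interaction stayed at 0 called under its 3 alternatives. The colon ratios to input, from 2 H3K18cr libraries with 2 inputs and 3 H3K4me3 libraries with 1 input, were described and not tested. Without division by exon length, 16 of the 20 percentiles of level (10 genes in HCT116 and in colon) moved by more than the spread between libraries.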
